A study of Mus musculus with 8 samples.

Results

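The S100 calcium-binding proteins described here were 10 genes taken by symbol (S100a1, S100a4, S100a6, S100a8, S100a9, S100a10, S100a11, S100a13, S100a14 and S100a16) of the 27998 genes in the count tables, which hold 7 further S100 genes. No measured value entered the choice of symbols, but the list was drawn up when earlier results of these data were known. Single epithelial cells of the mammary gland were profiled from 8 C57BL/6N mice, 2 at each of 4 stages and 1 library per mouse: virgin (nulliparous, NP) mice at 8 weeks of age, mice at day 14.5 of gestation (G), at day 6 of lactation (L) and at day 11 after the pups were weaned (post involution, PI). Cells had been sorted for the epithelial surface protein EpCAM after removal of cells that carried CD31, CD45 or Ter119, and were counted with a droplet method that reads the 3′ end of each transcript. No transgene or treatment was used, the age of the G, L and PI mice is not given in the sources used here, and PI mouse 1 was in dioestrus while both NP mice and PI mouse 2 were in oestrus. A level below is CPM, that is, the counted transcripts (unique molecular identifiers, UMIs) of a gene per 1e6 UMIs of all cells of 1 cluster or class in 1 mouse, so that the mouse is the replicate and 2 mice stand for a stage.

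S100 proteins are small dimers that bind calcium through paired EF-hand loops, change shape when the calcium level of the cell rises and then dock onto other proteins, annexins and cytoskeletal proteins among them. They have no enzyme activity of their own, and some are also released from cells and act as signals outside them. In the mammary gland, secretory alveolar cells move large amounts of calcium into milk and basal (myoepithelial) cells contract on a calcium signal to eject it.

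All 10 members lie on mouse chromosome 3 (GRCm38). In this annotation 8 of them fall within 185 kb, and S100a11 (chr3:93520488-93526287) and S100a10 (chr3:93555080-93564643) lie 2825 kb further on. S100a1 (chr3:90511034-90514392, minus strand) and S100a13 (chr3:90514435-90524581, plus strand) start head to head, 43 bases apart. Counts of S100a4 (chr3:90603771-90606045) share bases with the overlapping gene Gm42674 on the same strand, and S100a11 has a processed pseudogene, S100a11-ps, that has no row in the count tables, so reads of these genes may have been assigned to either or lost. The stretches before the annotated starts of S100a6 (chr3:90612644-90612881, plus strand), S100a11 (chr3:93520246-93520487, plus strand) and S100a4 (chr3:90603520-90603769, plus strand) are shown because S100a6 and S100a11 had the closest pattern of any pair of members over the epithelial clusters, and because S100a4 had the widest range of the 7 members with no cluster mean at 0, though its lowest mean was near 0. They are RefSeq sequences on GRCm38.p6, with bases in capitals where a searched motif was found on either strand.
S100a6: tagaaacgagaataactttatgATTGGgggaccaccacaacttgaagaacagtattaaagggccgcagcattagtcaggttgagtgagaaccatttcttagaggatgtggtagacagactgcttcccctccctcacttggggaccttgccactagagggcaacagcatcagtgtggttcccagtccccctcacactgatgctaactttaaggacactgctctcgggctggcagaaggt
S100a11: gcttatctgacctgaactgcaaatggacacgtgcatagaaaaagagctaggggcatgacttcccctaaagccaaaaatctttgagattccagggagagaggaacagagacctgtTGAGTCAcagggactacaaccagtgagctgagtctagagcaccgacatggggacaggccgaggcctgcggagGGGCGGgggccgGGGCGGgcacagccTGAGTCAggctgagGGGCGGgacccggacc
S100a4: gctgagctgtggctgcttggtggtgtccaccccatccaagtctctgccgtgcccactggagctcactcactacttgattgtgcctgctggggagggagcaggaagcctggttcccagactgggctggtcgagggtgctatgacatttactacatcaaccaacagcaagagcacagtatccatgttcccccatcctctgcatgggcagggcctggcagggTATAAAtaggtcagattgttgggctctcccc
The capitals in S100a6 are the CCAAT box read on the minus strand, 216 bases before the start. Those in S100a11 are the AP-1 motif TGACTCA on the minus strand at 128 and 30 bases and the GC box GGGCGG at 56, 44 and 16 bases. Those in S100a4 are a TATA box (TATAAA) 31 bases before the end of its stretch. That stretch ends at 90603769, while the annotated start is 90603771. The first bases from its RefSeq start were not found in an annotated transcript of S100a4, unlike those of the other members with an entry. Of 32851 RefSeq promoter windows, 12.4% held TATAAA, 4.46% TGACTCA, 32.7% GGGCGG and 33.8% CCAAT on either strand. A match is only a run of letters, and S100a6 held none of the TGACTCA motif that S100a11 held in this window. The promoter table held 8 of the 10 members and had no entry for S100a10 or S100a14.

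Libraries held between 13785920 UMIs (PI mouse 1) and 35711533 UMIs (G mouse 1), and 25009 cells passed the quality flags of the authors. Of 25806 barcodes, 791 occurred in more than 1 library, and no kept cell carried such a barcode. Clusters are those of the deposited annotation and were named as the study named them: hormone-sensing progenitors (C1 in PI, C2 in NP), differentiated hormone-sensing cells (C3 in PI, C4 in NP, C5 in G), luminal progenitors (C6 in NP, C7 in PI), differentiated alveolar cells (C8 in G, C9 in L), alveolar progenitors (C10 in G, C11 in L), basal cells (C12 in NP and PI, C13 in G), myoepithelial cells (C14 in L) and Procr-positive basal cells (C15 in L). Levels needed 20 or more cells of a cluster in a mouse, and the 15 epithelial clusters, the fibroblast-like C18, the endothelial-like C19 and the immune-like C17 were used, while C16 and the doublet cluster C20 were set aside by choice. Krt5, Krt14 and Acta2 were among the genes by which the study told basal from luminal clusters. Their levels are therefore no independent check of the names. Summed Krt5, Krt14 and Acta2 reached 7597 to 32445 CPM in basal sums and 13.4 to 196.5 CPM in luminal sums of NP, G and PI mice, but 878 to 4495 CPM in the alveolar sums of L mice. C15 held 6216 and 5380 CPM of 7 pericyte markers beside 7717 and 8886 CPM of the 3 basal ones and is kept apart below.

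Together the 10 members made up 0.094% to 1.37% of all UMIs of a class in a mouse. The lowest share was in differentiated alveolar cells of L mouse 2 and the highest in differentiated hormone-sensing cells of PI mouse 1. S100a6 alone gave 7.72% of the members' UMIs in differentiated alveolar cells of G mouse 1 and 70.1% in basal cells of L mouse 1, in UMI counts, which in a 3′ assay do not grow with transcript length. Across the 15 epithelial clusters the highest cluster mean was 3.66 times the lowest for S100a1, the most even member, 88.1 times for S100a6 and 996 times for S100a4, while S100a8, S100a9 and S100a14 had clusters at 0. The S100a4 ratio sets C15 (671 CPM, next C11 with 44.8 CPM) against C9 (0.674 ± 0.953 CPM, SD, n = 2). With a lowest mean so near 0 it is not a stable estimate.

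**Figure D1:**
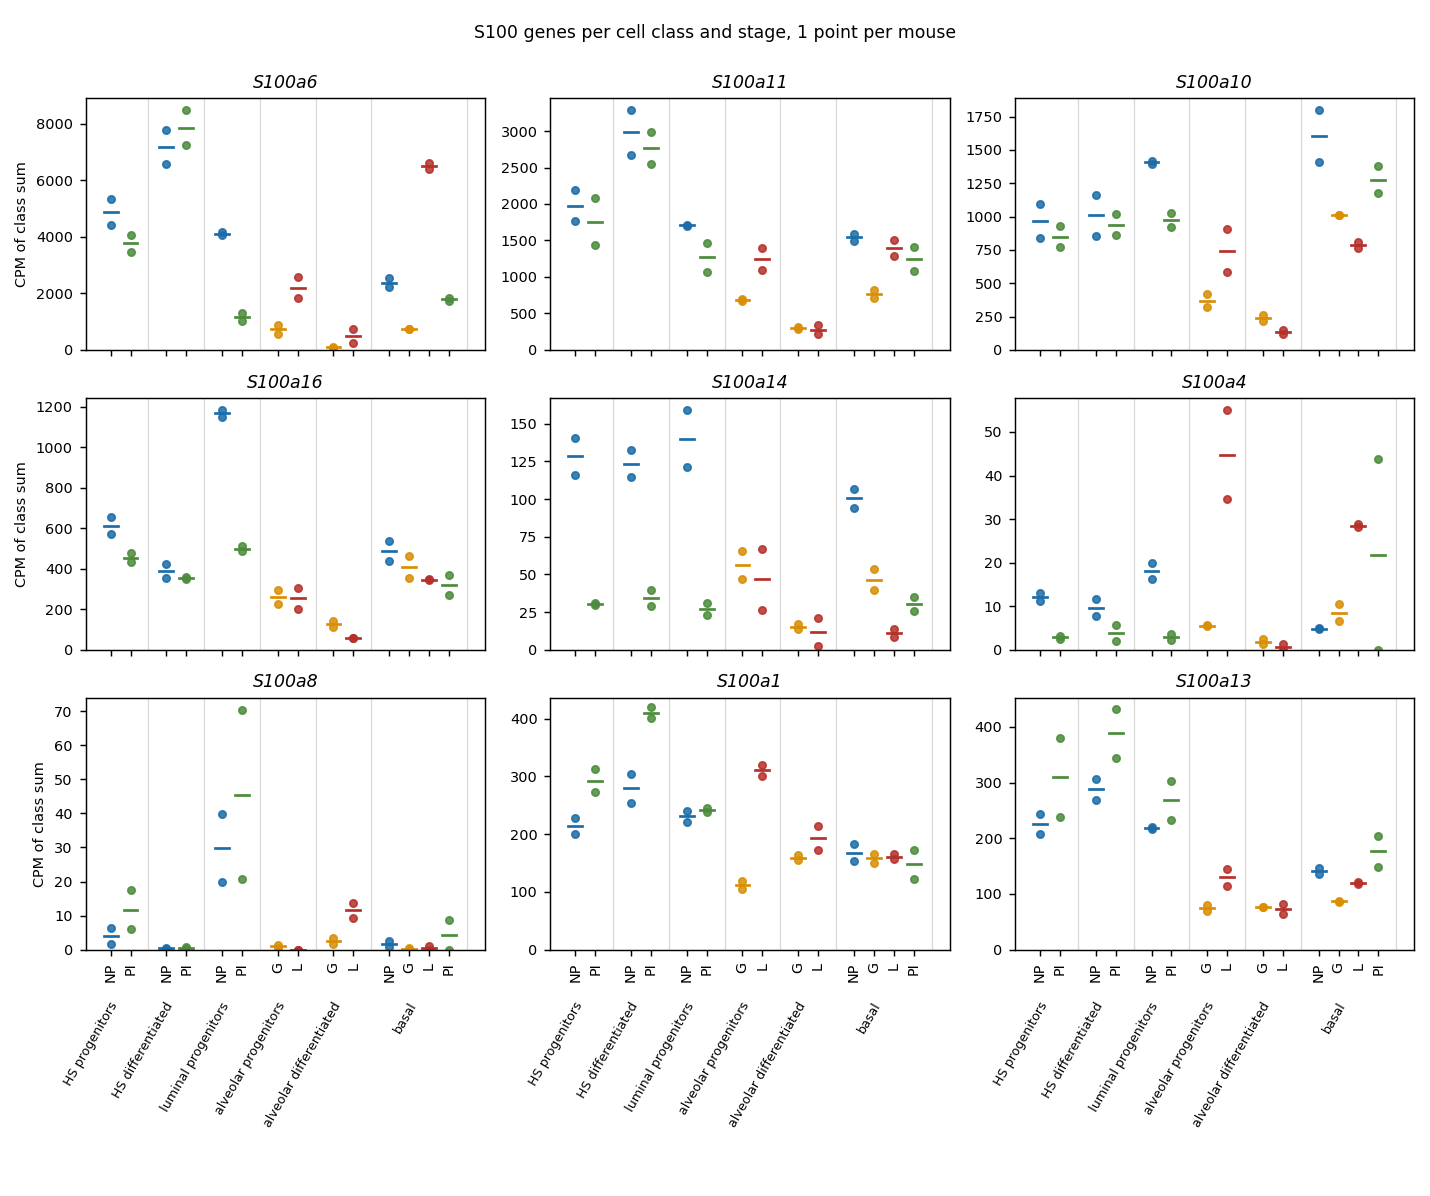
Levels of 9 S100 genes in CPM (vertical axis, linear, each panel with its own scale) in 6 cell classes and the stages in which a class had enough cells. Each point is 1 mouse and each bar the mean of 2 mice. S100a6 stands near 6504 CPM in basal cells at L against 744 CPM at G, and S100a14 is lower at PI than at NP in each class that had both.

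S100a6 (calcyclin), which binds annexins and the calcyclin-binding protein, was highest in differentiated hormone-sensing cells. It had 8251 and 7218 CPM in the 2 PI mice in C3 and 7769 and 6578 CPM in the 2 NP mice in C4. These clusters overlapped each other, and C4 also overlapped the lactating myoepithelial cells of C14 (6397 and 6613 CPM). S100a6 is among the genes by which the study named the hormone-sensing clusters, so its high level there is partly the choice of name. Within that group it was not high at gestation: C5, the hormone-sensing cells of the G mice, had 438 and 383 CPM, 17.5 times less than C4 on average, from only 20 and 41 cells. An S100a6 UMI was found in 65% and 68.3% of these C5 cells. The lowest cluster was C8, the differentiated alveolar cells of gestation, with 73.4 and 102 CPM. Alveolar progenitors of the same mice (C10) had 572 and 896 CPM, 8.36 times more than C8.

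**Figure D2:**
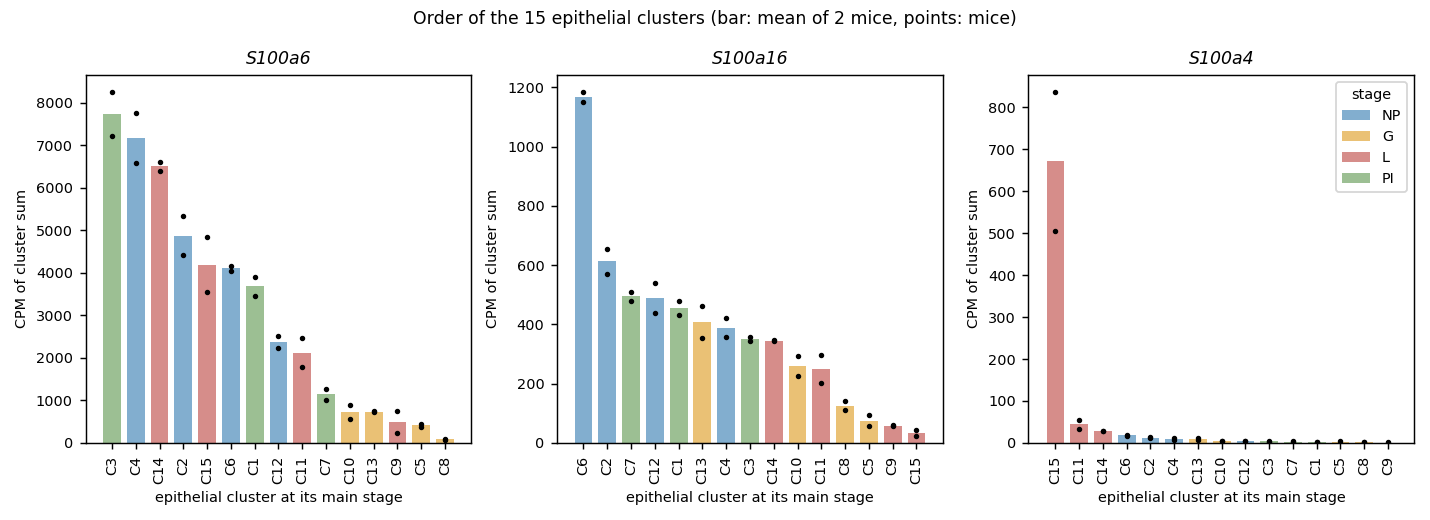
Mean CPM (bars, linear axis from 0) and the value of each mouse (points) for S100a6, S100a16 and S100a4 in the 15 epithelial clusters, each at its main stage and sorted from high to low, with stage as colour. S100a6 falls in steps from C3 to C8, S100a16 is led by C6 with no overlap with the next cluster, and S100a4 is led by C15 at 671 CPM.

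S100a11, a partner of annexin A1, followed an order close to that of S100a6. C4 (3289 and 2669 CPM) and C3 (2957 and 2555 CPM) led and overlapped each other, and C15 came next with 2386 and 2483 CPM. The alveolar clusters C8 (292 and 312 CPM) and C9 (341 and 216 CPM) were lowest and also overlapped. S100a10 (p11), which forms a complex with annexin A2 and does not itself respond to calcium, had another order. It was highest in NP basal cells of C12 (1802 and 1418 CPM), which overlapped the NP luminal progenitors of C6 (mean 1407 CPM). Its lowest level was in C9 (148.5 and 118.6 CPM), a 12.1-fold range of means. Its level was higher in the summed basal clusters C12 to C14 than in the summed luminal clusters in 8 of 8 mice, with a median difference, luminal minus basal, of -0.62 on the log2 scale. In the hormone-sensing cells of gestation (C5) S100a10 stood at 1501 and 1037 CPM, and it was the member with the most UMIs there in both mice.

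S100a16, a widely expressed member, was highest in NP luminal progenitors. C6 had 1184 and 1150 CPM, and the next cluster, C2, had a mean of 613 ± 60.4 CPM (SD, n = 2) with no overlap between mice. C15 was lowest with a mean of 34.7 CPM. S100a14, a member mostly of epithelia, had its 4 highest means in the 4 NP clusters: 140 ± 26.8 CPM in C6, 128 ± 17.5 in C2, 124 ± 12.6 in C4 and 101 ± 8.98 in C12 (SD, n = 2). No S100a14 UMI was counted in the 205 and 57 C15 cells of the L mice, at median depths of 2895 and 3683 UMIs per cell, against 3.64% and 5.57% of the basal cells of the same mice with a UMI at 3701 and 4147 UMIs per cell. By counting alone 0 cells allow up to 1.78% and 6.27% of C15 cells with an S100a14 UMI (exact 95% bounds), which limits cells with a UMI and not cells that express the gene. Fibroblast-like C18 cells, which should lack it, had 0 to 18.7 CPM.

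S100a4, which binds non-muscle myosin and is often used as a mark of fibroblasts, was concentrated in C15, which may not be epithelial. C15 had 506 and 837 CPM, and the next, the alveolar progenitors of lactation (C11), 55.5 and 34.1 CPM. The mean of C15 was 23.6 times that of C14, the myoepithelial cells of the same mice. UMIs of S100a4 were found in 46.3% (95% interval 39.4 to 53.4) and 63.2% (49.3 to 75.6) of C15 cells, at median depths of 2895 and 3683 UMIs per cell, and in 10.3% and 11.1% of basal cells at 3701 and 4147 UMIs. After thinning each cell to 1000 UMIs the shares were 26.3% and 33.3% in C15 and 2.59% and 2.09% in basal cells. The fibroblast-like C18 had 155 and 60.7 CPM in L mice and 15.6 to 36.2 CPM at the other stages, below C15 in both L mice. The 7 fibroblast markers summed to 1587 and 405 CPM in C15 itself, with Pdgfra at 0 in both mice, and the part of such cells in the S100a4 level of C15 was not tested. Immune-like C17 cells had 135 and 93.3 CPM in the G mice but 2.33 and 5.59 CPM in the L mice. Intervals here and below are exact (Clopper-Pearson) and cover counting error only.

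S100a8 and S100a9 form the heterodimer calprotectin, the main soluble protein of neutrophils, and are usually made together. Here few cells held both. Among all 25009 kept cells, 361 cells held 1171 S100a8 UMIs, while 15 cells held 42 S100a9 UMIs, of which 26 were in 1 basal cell of L mouse 1. Both were found in 4 cells. S100a8 was carried mainly by luminal progenitors, with 858 UMIs in 187 of 2652 cells, against 5 S100a9 UMIs in 3 cells. The share of luminal progenitors with an S100a8 UMI was 4.03% (2.27 to 6.56) and 5.05% (2.91 to 8.07) in the NP mice and 11.9% (9.83 to 14.3) and 4.95% (3.75 to 6.4) in the PI mice. At full depth PI mouse 1 stood apart, and the other 3 mice overlapped. In differentiated hormone-sensing cells of the same 4 mice the share was 0.0777% to 0.664%, at median depths of 5634 to 10280 UMIs per cell against 5592 to 7768 in luminal progenitors. The UMIs were held by few cells: the 10 cells with the most gave 38.9% of them in PI mouse 1 and 93.8% in NP mouse 2. The 10 neutrophil markers, Ly6g, Csf3r and Mmp8 among them, summed to 0 to 0.623 CPM in luminal progenitors, where Ly6g, Retnlg, Csf3r, Ngp, Camp, Mpo and Mmp8 were at 0 in every mouse, and 1 luminal progenitor held both S100a8 and a neutrophil marker. S100a8 was higher in summed luminal than in summed basal cells in 8 of 8 mice, while S100a9 was too low to be tested in any comparison. That order rests partly on values near 0, as the basal sums held 2 and 0 S100a8 UMIs in the G mice and 1 in L mouse 2. The share of all genes with such an order in 8 of 8 mice was not counted. At 1000 UMIs per cell the S100a8 shares of luminal progenitors were 0.538% and 2.84% at NP and 3.43% and 1.8% at PI. At that depth PI mouse 1 was close to NP mouse 2 and no longer stood apart.

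**Figure D3:**
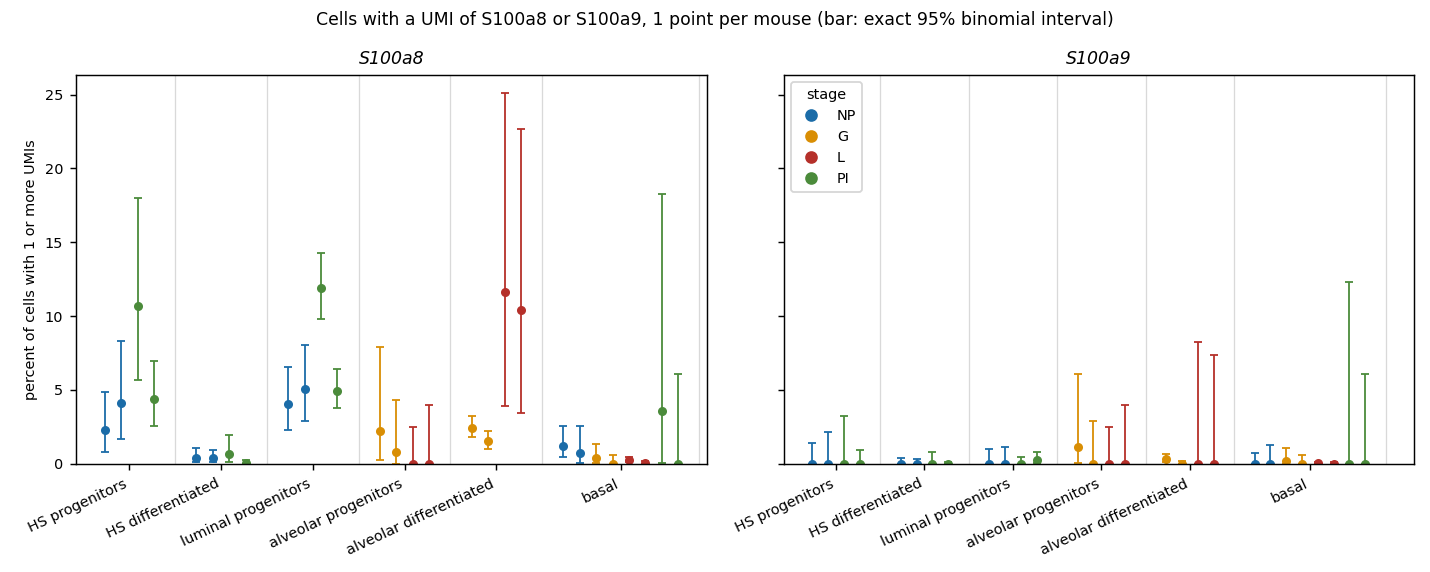
Percent of cells with 1 or more UMIs of S100a8 (left) and S100a9 (right) on the same linear axis, by cell class and stage. Points are mice and bars exact 95% binomial intervals. S100a8 reaches 11.9% in luminal progenitors of PI mouse 1, and S100a9 stays at or below 1.12% in each class and mouse.

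S100a1, best known as a regulator of calcium cycling in heart muscle, and S100a13, which takes part in the export of the growth factor FGF1, were the most even members. S100a1 went from 113 CPM in C10 to 413 CPM in C3 and S100a13 from 72.8 CPM in C9 to 389 CPM in C3. In the order of S100a1, 11 of the 14 neighbouring clusters overlapped between mice, and the same number did for S100a13. Both were highest in hormone-sensing cells of PI mice.

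Over the 15 cluster means, on log2(CPM + 1), the highest correlations between members were 0.92 for S100a6 with S100a11, 0.84 for S100a14 with S100a16, 0.84 for S100a11 with S100a13 and 0.79 for the head-to-head pair S100a1 and S100a13. S100a4 and S100a14 went opposite ways (-0.41), with C15, the highest in S100a4 and at 0 in S100a14, among the 15 points. Outside the members, genes among the 2 with the most similar pattern of 8862 were Igf2bp3 (0.95) and Osbpl5 (0.91) for S100a6, Igf2bp3 (0.95) and Plec (0.92) for S100a11, Ube2g2 (0.95) for S100a10, and Amd1 (0.97) for S100a16. For the others they were Ntn4 (0.93) and Rnf152 (0.92) for S100a4, Cxcl3 (0.90) and Depdc7 (0.89) for S100a8, Tanc2 (0.91) for S100a14, Arg1 (0.88) and Sqrdl (0.86) for S100a1, and R3hcc1l (0.91) and Ehd1 (0.91) for S100a13. Clusters of 1 mouse share its library and depth, so these values are descriptions over 15 points.

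The first question the design allows is whether a cell class of the parous, regressed gland differs from its virgin counterpart. As the age of the PI mice is not given, age and parity cannot be told apart in any comparison of PI with NP. Luminal progenitors, the cells from which alveoli form in pregnancy, had the most members called of the 4 classes compared: 5 of 9 members tested were lower at PI, and 0 were higher. Of all genes, 26.9% were called, 13.9% higher and 13% lower. The median change was -0.45 on the log2 scale over the members tested and -0.02 over all genes tested. Scaled by UMI total alone, an alternative without TMM factors, the higher calls made up 40.9% of all calls instead of 51.7%. The mice of the 2 stages did not overlap in 7 of the 9 members, nor in 65.8% of all genes. S100a9 did not pass the filter on low counts. S100a6 had 4165 and 4048 CPM in the NP mice and 1288 and 1027 CPM in the PI mice. Both PI mice were below both NP mice by a wide gap. It fell by 1.75 on the log2 scale (SE 0.17, 3.36-fold, adjusted p = 3.5e-05). S100a16 had 1184 and 1148 CPM at NP and 486 and 511 CPM at PI, again with no overlap. It fell by 1.15 (SE 0.13, adjusted p = 1.3e-04). S100a14 had 121 and 159 CPM at NP and 30.9 and 22.9 CPM at PI. The 4.92-fold difference was among the steepest of the members (log2 change -2.30, SE 0.18, adjusted p = 1.1e-05), and the share of cells with an S100a14 UMI was 48.9% and 49.2% at NP and 15.8% and 13% at PI. S100a4 was low at both stages, with 19.9 and 16.1 CPM against 3.71 and 2.24 CPM. Its 2 groups were also apart, and it fell by 2.53 (SE 0.30, adjusted p = 1.5e-04).

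S100a10 changed least of the 5, from 1419 and 1393 CPM to 1028 and 924 CPM (log2 change -0.45, SE 0.14, adjusted p = 0.0333). That call was lost without NP mouse 1 (adjusted p = 0.138), NP mouse 2 (0.148) or PI mouse 2 (0.0734). The other 4 members tested, S100a1, S100a8, S100a11 and S100a13, were not called. S100a11 had 1704 and 1714 CPM against 1462 and 1071 CPM, and S100a13 had 216 and 220 CPM against 303 and 233 CPM. S100a8 had 19.9 and 39.7 CPM against 70.2 and 20.7 CPM, and its difference changed sign when PI mouse 1 was left out (log2 change 0.72 with all mice and -0.40 without it). PI mouse 1 was the mouse in dioestrus, and its oestrous stage and its other differences from the other PI mouse cannot be told apart. The 22 cells of PI mouse 1 that the annotation placed in the NP cluster C6 had 2702 CPM of S100a6 and 132 CPM of S100a14, against 1259 and 28.8 CPM in its C7 cells. The clusters were themselves made from expression, so levels near those of NP in these few cells of 1 mouse are no independent result. Milk proteins moved the opposite way in this class: the 8 milk genes summed to 770 and 1445 CPM at NP and 13392 and 14585 CPM at PI. Of 4 macrophage and B cell markers tested 2 were higher (8 genes summed to 25.1 and 32.7 CPM at NP and 48 and 44.8 CPM at PI). Of 4 fibroblast markers tested 2 were lower, like S100a4, and the 7 genes summed to 11.8 and 197 CPM at NP and 1.19 and 25.9 CPM at PI, which overlap between the stages. The part of these cells or transcripts in the S100 values was not tested.

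The 2 hormone-sensing classes shared with luminal progenitors the lower S100a14 and S100a4 at PI. In hormone-sensing progenitors 2 of 9 members tested were lower and 1 was higher, where 16.6% of all genes were called, 9.58% higher and 7.05% lower (median change -0.20 over the members, -0.02 over all genes). In 5 of the 9, and in 58.9% of all genes, the mice of the 2 stages did not overlap. S100a14 had 116 and 141 CPM at NP and 31.3 and 29.5 CPM at PI. The PI mice were close to each other and far below both NP mice. It fell by 2.09 (SE 0.16, adjusted p = 6.9e-06). S100a4 had 13.1 and 11.3 CPM at NP and 3.08 and 2.58 CPM at PI, without overlap, and fell by 2.16 (SE 0.32, adjusted p = 8.6e-04). S100a1 had 228 and 201 CPM against 313 and 273 CPM. It rose by 0.44 (SE 0.13, adjusted p = 0.0428), a call lost without NP mouse 1 (0.193), NP mouse 2 (0.314) or PI mouse 1 (0.0985), with DESeq2 (0.0927), at equal depth (0.0556) and by UMI total alone (0.0546). S100a6, with 5329 and 4428 CPM at NP and 4067 and 3463 CPM at PI, did not pass the test (log2 change -0.39, SE 0.20, adjusted p = 0.203).

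In differentiated hormone-sensing cells 2 of 8 members tested were lower and 0 were higher, where 14.3% of all genes were called, 7.64% higher and 6.65% lower (median change -0.17 over the members, -0.02 over all genes). In 4 of the 8, and in 56.3% of all genes, the mice did not overlap. S100a8 and S100a9 did not pass the filter. S100a14 had 115 and 132 CPM at NP and 29.3 and 39.9 CPM at PI, without overlap. It fell by 1.85 (SE 0.19, adjusted p = 1.2e-04). S100a4 had 11.6 and 7.76 CPM against 1.92 and 5.61 CPM and fell by 1.11 (SE 0.34, adjusted p = 0.0481), a call lost without NP mouse 1 (0.209) or with DESeq2 (0.0658), and a fall of 2.43 without PI mouse 2. S100a6 was at 7786 and 6575 CPM in the NP mice and 8476 and 7243 CPM in the PI mice. The mice of both stages overlapped, and the log2 change was 0.07 (SE 0.24, adjusted p = 0.88). The 3 basal markers were also called lower in these sums (119 and 49.1 CPM at NP, 13.4 and 21.1 CPM at PI), as was 1 of 6 fibroblast markers tested (7 genes summed to 11.1 and 25.4 CPM at NP and 3.29 and 14.3 CPM at PI), and their part in the result was not tested.

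A single fit over the 3 luminal classes, with terms for mouse and class, tested if the PI against NP change was unequal among them. It was unequal for S100a6 (adjusted p = 1.5e-09) and S100a16 (adjusted p = 3.8e-05), 2 of 9 members tested, where 15.9% of all genes were called. For S100a6 the log2 change was 1.35 higher in hormone-sensing progenitors and 1.84 higher in differentiated hormone-sensing cells than in luminal progenitors. For S100a16 the same differences were 0.68 and 0.97. For S100a14, with falls in each of the 3 classes, the test did not find a difference (adjusted p = 0.201), nor for S100a4 (adjusted p = 0.0602). Without PI mouse 1, the mouse in dioestrus, both were called (adjusted p = 0.00176 for S100a14 and 8.5e-04 for S100a4).

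Basal cells of the parous gland were few, 28 and 59 cells, against 504 and 283 in the virgin mice. Of 9 members tested 3 were lower at PI, S100a6, S100a14 and S100a16, and 0 were higher, where 4.47% of all genes were called, 1.92% higher and 2.54% lower (median change -0.50 over the members, -0.20 over all genes). By UMI total alone 64% of the calls were higher instead of 43%. In 6 of the 9, and in 50.7% of all genes, the mice did not overlap. S100a14 had 107 and 94.2 CPM at NP and 35 and 25.6 CPM at PI. The groups did not overlap, and it fell by 1.98 (SE 0.42, adjusted p = 0.0105). S100a6, with 2526 and 2214 CPM at NP and 1722 and 1846 CPM at PI, fell by 0.56 (SE 0.14, adjusted p = 0.0259). S100a16, with 539 and 439 CPM at NP and 367 and 272 CPM at PI, fell by 0.83 (SE 0.19, adjusted p = 0.019). These calls rested on single mice. Without PI mouse 2 none of the 3 was called (adjusted p = 0.0593 for S100a6, 0.368 for S100a14 and for S100a16), without PI mouse 1 S100a16 alone was (0.0747 for S100a6, 0.0613 for S100a14), and without NP mouse 1 S100a14 alone was (0.131 for S100a6, 0.125 for S100a16). S100a4 in these cells was 43.7 CPM in PI mouse 1, from 5 UMIs of which 4 were in 1 cell, and 0 in PI mouse 2. The 4 hormone-sensing markers summed to 8.74 CPM in PI mouse 1 and 768 CPM in PI mouse 2 in these sums, against 278 and 304 CPM at NP, and their part in the result was not tested.

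The second question is how pregnancy and then lactation change the cells. In basal cells, gestation was the low point of several members. Against NP, 5 of 9 members tested were lower at G and 0 were higher, where 39.9% of all genes were called, 21% higher and 18.9% lower (median change -0.63 over the members, 0.01 over all genes). In 7 of the 9, and in 72.7% of all genes, the mice did not overlap. S100a6 had 2526 and 2214 CPM at NP and 735 and 752 CPM at G. The G mice were close together and far below both NP mice, and it fell by 1.6 (SE 0.13, 3.02-fold, adjusted p = 2.4e-07). S100a11 had 1595 and 1498 CPM at NP and 815 and 710 CPM at G. It fell by 0.94 (SE 0.14, adjusted p = 8.0e-05), about as far as S100a14, which fell by 1.04 from 107 and 94.2 CPM to 39.7 and 53.4 CPM (SE 0.20, adjusted p = 5.4e-04). S100a13, which went from 147 and 137 CPM to 86.5 and 87.5 CPM, fell by 0.63 (SE 0.14, adjusted p = 0.00217). Thinning all basal sums to equal depth brought them to the smallest, PI mouse 1 with 28 cells and 114382 UMIs, which is in neither stage here. That left 2571 instead of 11870 genes tested. In that thin setting the calls of S100a13 (log2 change -0.17, adjusted p = 0.804) and S100a14 (-1.36, adjusted p = 0.117) were lost. S100a10 had 1802 and 1413 CPM against 1010 and 1012 CPM and fell by 0.59 (SE 0.14, adjusted p = 0.00266), a call lost without NP mouse 1 (0.0736). S100a1 (log2 change -0.02, SE 0.14) and S100a16 (-0.18, SE 0.15) were not called. Luminal markers were also lower in these sums (3 of 3 called): Krt8, Krt18 and Krt19 summed to 4289 and 2804 CPM at NP and 855 and 883 CPM at G, and 4 hormone-sensing markers to 278 and 304 CPM at NP and 17.9 and 15.3 CPM at G. Their part in the S100 values was not tested.

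The tested basal class pooled C12, C13 and C14. Its L sums were almost all myoepithelial cells of C14 (4637 of 4639 and 3104 of 3105 cells). Its G sums were almost all cells of C13, so stage and cluster cannot be told apart here. From gestation to lactation the basal cells gained S100a6 more than any other member. The G mice had 735 and 752 CPM and the L mice 6395 and 6613 CPM. Every L basal sum was above every other basal sum of the study, and S100a6 rose 9.57-fold (log2 change 3.26, SE 0.14, adjusted p = 8.6e-11). UMIs of S100a6 were found in 91.7% and 92.4% of basal cells at G and in 99.9% and 100% at L, and, at 1000 UMIs per cell, in 47.2% and 47.5% against 98.4% and 98.8%. Of 9 members tested 4 were higher and 1 was lower, where 50.1% of all genes were called, 25.2% higher and 24.9% lower (median change 0.58 over the members, 0.03 over all genes), so the count of members is near the background. S100a11 had 815 and 710 CPM at G and 1292 and 1504 CPM at L, and rose by 1.00 (SE 0.14, adjusted p = 2.3e-05). S100a4 had 10.6 and 6.51 CPM at G and 28.8 and 28.2 CPM at L. Both L mice were above both G mice and close together, and it rose by 1.88 (SE 0.30, adjusted p = 6.0e-05). S100a13, with 86.5 and 87.5 CPM at G and 117 and 121 CPM at L, rose by 0.58 (SE 0.14, adjusted p = 0.00201). That call was lost at equal depth, again the low depth of PI mouse 1 (log2 change 0.19, adjusted p = 0.778), where S100a4 did not pass the filter. S100a14 moved the other way, from 39.7 and 53.4 CPM to 8.80 and 13.6 CPM, and fell by 1.94 (SE 0.20, adjusted p = 9.0e-07). The mice of the 2 stages did not overlap in 7 of the 9 members, these 5 among them, nor in 77.9% of all genes. S100a10 (log2 change -0.23, SE 0.14), S100a16 (-0.12, SE 0.15) and S100a1 (0.16, SE 0.14) were not called. Markers of other cells were higher at L too: 3 of 5 pericyte markers tested (7 genes, 27.9 and 41.1 CPM at G, 129 and 58.5 CPM at L), 2 of 3 luminal markers (855 and 883 CPM at G, 2113 and 1395 CPM at L) and 2 of 6 endothelial markers (26.2 and 25.6 CPM at G, 59.8 and 28.2 CPM at L). C15, with its pericyte markers, had 671 CPM of S100a4, and the part of these cells in the basal values was not tested.

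In alveolar progenitors 6 of 8 members tested were higher at L than at G and 0 were lower, where 28% of all genes were called, 15.7% higher and 12.3% lower (median change 1.22 over the members, -0.03 over all genes). By UMI total alone 31.6% of the calls were higher instead of 56%, and the median over all genes was -0.31. In 6 of the 8, and in 70.5% of all genes, the mice did not overlap. S100a8 and S100a9 did not pass the filter. S100a1 had 106 and 120 CPM at G and 319 and 301 CPM at L. The groups were well apart, and it rose 3.35-fold (log2 change 1.74, SE 0.16, adjusted p = 5.5e-05). S100a6 had 572 and 896 CPM at G and 1832 and 2581 CPM at L, and rose by 1.87 (SE 0.24, adjusted p = 5.1e-04). S100a11 had 695 and 670 CPM against 1092 and 1395 CPM and rose by 1.15 (SE 0.16, adjusted p = 9.0e-04). The other 2 moderate changes were those of S100a10, which rose by 1.29 from 324 and 416 CPM to 581 and 909 CPM (SE 0.22, adjusted p = 0.00246), and of S100a13, which rose by 1.07 (SE 0.18, adjusted p = 0.00238). S100a4 had 5.36 and 5.62 CPM at G and 55 and 34.5 CPM at L and rose by 3.31 (SE 0.37, adjusted p = 2.3e-04), but 1 cell of L mouse 1 held 32 of the 62 UMIs of that mouse. Basal markers rose in the same sums (3 of 3 called): Krt5, Krt14 and Acta2 summed to 126 and 197 CPM at G and 4495 and 3304 CPM at L. Basal cells of the L mice had 6395 and 6613 CPM of S100a6, and 8 macrophage and B cell markers summed to 48.2 and 53 CPM in these sums at G and 370 and 261 CPM at L. Both fibroblast markers tested were higher as well, and all 7 summed to 30.6 and 22.5 CPM at G and 128 and 70.2 CPM at L. The part of any of these in the S100 values was not tested.

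Differentiated alveolar cells at L were 43 and 48 cells, and milk proteins took 44.4% and 41.6% of their UMIs against 9.67% and 5.74% at G. CPM counts milk transcripts in its total and TMM scaling sets aside the most extreme genes, so CPM and fold changes differ more here than elsewhere. On the TMM scale 5 of 9 members tested were higher at L and 0 were lower, where 18.7% of all genes were called, 9.54% higher and 9.17% lower (median change 0.77 over the members, -0.14 over all genes). Scaled by UMI total alone, the median over all genes was -1.05 and 9.06% of the calls were higher instead of 51%. In 6 of the 9, and in 80.8% of all genes, the mice did not overlap. S100a6 rose under both scalings, from 73.4 and 102 CPM at G to 736 and 239 CPM at L, with L mouse 1 far above L mouse 2. Its log2 change was 3.34 (SE 0.37, adjusted p = 4.3e-05), and 2.38 without L mouse 1. S100a8 had 3.40 and 1.82 CPM at G and 13.9 and 9.40 CPM at L, from 8 and 7 UMIs in the L mice. It rose by 3.00 (SE 0.63, adjusted p = 0.00551), a call lost without G mouse 1 (0.215) or G mouse 2 (0.267). S100a1 had 163 and 155 CPM at G and 173 and 213 CPM at L and rose by 1.19 after TMM scaling (SE 0.18, adjusted p = 6.3e-04), but did not pass the test by UMI total alone (log2 change 0.29, adjusted p = 0.178).

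S100a11 and S100a13 were called higher after TMM scaling (log2 changes 0.77, SE 0.20, adjusted p = 0.0184, and 0.85, SE 0.19, adjusted p = 0.00784) but were lower and not called by UMI total alone (-0.13 and -0.06). Their CPM overlapped between the stages, with 292 and 312 CPM of S100a11 at G and 339 and 216 CPM at L, and 76.3 and 77.1 CPM of S100a13 at G and 64.1 and 81.9 CPM at L. The calls were also lost for S100a11 without G mouse 2 (adjusted p = 0.108) or L mouse 1 (0.0845, log2 change 0.45) and for S100a13 without G mouse 2 (0.0996) or L mouse 2 (0.145, log2 change 0.56). S100a10 had 215 and 258 CPM at G and 152 and 118 CPM at L, with a log2 change of 0.09 after TMM scaling (adjusted p = 0.791) and -0.82 by UMI total alone (adjusted p = 0.00209). Basal markers rose here too (3 of 3 called), from 111 and 107 CPM at G to 2007 and 878 CPM at L. Here L mouse 1 had more of these markers and more S100a6 than L mouse 2. In alveolar progenitors it had more of the markers and less S100a6. The part of these markers in the result was not tested.

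**Figure D4:**
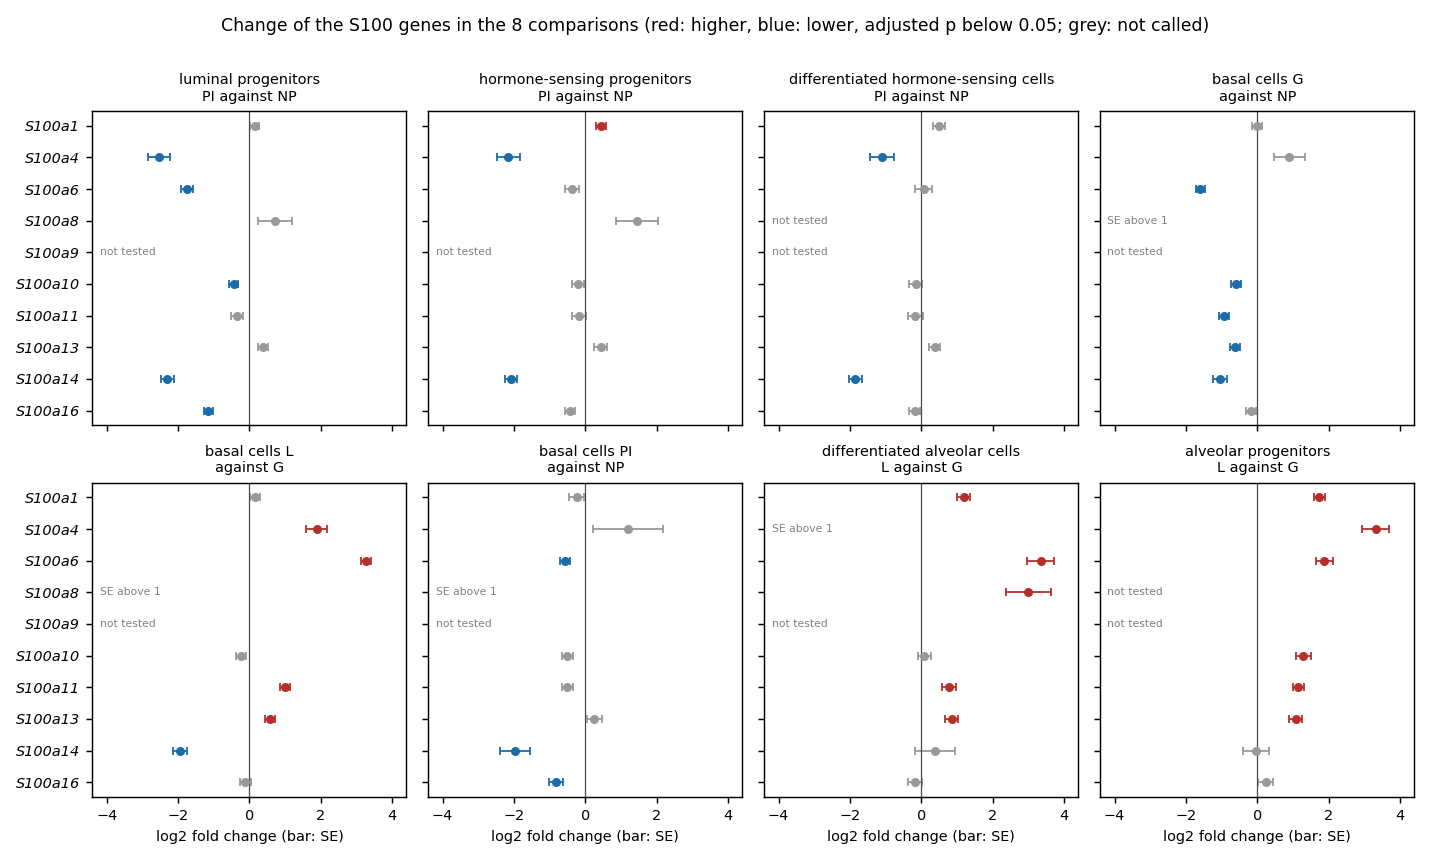
Log2 fold change (horizontal axis) with SE (bars) of each member in the 8 comparisons of stages, after TMM scaling, with higher calls in red, lower calls in blue and members not called in grey. S100a14 is lower in 6 of 8 panels, while S100a6 spans -1.75 to 3.34, and S100a11 and S100a13 in differentiated alveolar cells turn below 0 when scaled by UMI total alone.

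The same kind of fit over differentiated alveolar cells, alveolar progenitors and basal cells tested if the L against G change was unequal among them. It was unequal for 5 of 9 members tested, where 27% of all genes were called: S100a1 (adjusted p = 2.8e-06), S100a10 (4.3e-05), S100a14 (2.5e-04), S100a6 (0.00337) and S100a4 (0.0326). DESeq2 called 3 members in this fit, and scaling by UMI total alone 8. The differences that follow are on the TMM scale. Their reference class, differentiated alveolar cells, had an S100a1 change of 1.19 on that scale, which was not called by UMI total alone. S100a4 was near 0 in that class, with means of 1.89 CPM at G and 0.671 CPM at L, so its call rests on a near-empty reference. Compared with differentiated alveolar cells, the log2 change of S100a1 was 0.49 higher in alveolar progenitors and 1.06 lower in basal cells (-1.06). That of S100a10 was 1.13 higher in alveolar progenitors. That of S100a14 was 2.30 lower in basal cells (-2.30). For S100a6 the change was 1.46 smaller in alveolar progenitors (-1.46) and close to it in basal cells (-0.07), and this call was lost without G mouse 2 (adjusted p = 0.12). The call for S100a4 was lost without G mouse 2 (0.0835) or L mouse 1 (0.262).

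Among the 7 other S100 genes, few were high enough to test (1 to 3 per comparison). S100a3, a neighbour of S100a4 on the chromosome, was also lower in luminal progenitors at PI. It had 46.2 and 38.1 CPM at NP and 2.65 and 5.11 CPM at PI, without overlap, and fell by 3.35 (SE 0.26, adjusted p = 9.7e-06). S100g (calbindin-D9k), which carries calcium through absorbing and secreting epithelia, was 0 and 1.87 CPM (0 and 3 UMIs) in alveolar progenitors at G and 994 and 3093 CPM at L, past the test (adjusted p = 1.4e-05) with no fold given for so few counts.

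The annexins are the best-known partners of several members. Of 13 genes (12 annexins and Ahnak, a large scaffold bound by the annexin A2 and S100a10 complex), 7 of 9 tested were lower and 1 was higher in basal cells at G against NP, and 7 of 9 were higher and 0 lower at L against G (medians -0.92 and 0.52, against 0.01 and 0.03 over all genes, of which 39.9% and 50.1% were called). Anxa2, the partner of S100a10, fell by 1.62 (SE 0.16, adjusted p = 1.4e-06) from 650 to 201 CPM at G and then rose by 1.49 (SE 0.16, adjusted p = 1.0e-06) to 517 CPM at L. Anxa1, the partner of S100a11, fell by 2.11 (SE 0.23, adjusted p = 2.9e-06) from 226 to 49.9 CPM and rose by 1.85 (SE 0.22, adjusted p = 3.6e-06) to 165 CPM. The 2 comparisons share the G mice. Ahnak rose by 1.21 at L (SE 0.14, adjusted p = 2.7e-06). In luminal progenitors at PI against NP, 2 of 10 tested were higher and 1 was lower (median -0.04), near the 26.9% of all genes called. Anxa8 had 24.8 and 26.1 CPM at NP and 189.5 and 167 CPM at PI, without overlap, and rose by 2.89 (SE 0.15, adjusted p = 5.3e-07), whereas Anxa3 fell by 2.24 (SE 0.16, adjusted p = 5.1e-06) from 228 to 45.5 CPM. In alveolar progenitors at L against G, 5 of 10 were higher and 0 lower where 28% of all genes were called, Anxa1 by 1.66 (SE 0.25, adjusted p = 0.00114) and Anxa2 by 0.76 (SE 0.20, adjusted p = 0.0204), with a list median of 0.64. In the 4 other comparisons 0 to 3 genes of this list were higher and 0 to 1 lower, where 4.47% to 18.7% of all genes were called. All levels in these lists are means of 2 mice unless both are given, and the lists were drawn up with earlier results of the data known.

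Of 9 receptors or surface partners named for extracellular S100 proteins, 8 were tested in each comparison. In luminal progenitors 5 were higher and 1 was lower at PI (median 0.71, against -0.02 over all genes, of which 13.9% were higher and 13% lower). Cd36, which the study lists among genes of milk secretion, rose by 3.27 (SE 0.5, adjusted p = 7.3e-04) from 3.67 to 29.4 CPM. Cd14, a co-receptor of Tlr4 and also a marker of this class, rose by 1.41 (SE 0.18, adjusted p = 2.6e-04) from 286 to 721 CPM. Ly96, the other co-receptor, rose by 0.84 (SE 0.23, adjusted p = 0.0186). In alveolar progenitors 6 were higher and 2 were lower at L (median 0.99, against -0.03 over all genes, of which 28% were called). There Cd36 rose by 3.63 (SE 0.3, adjusted p = 3.5e-05) and Cd14 by 1.62 (SE 0.17, adjusted p = 1.8e-04). Of 16 other EF-hand genes, 2 were higher and 3 lower of 12 tested in luminal progenitors (median 0.14), and 5 higher and 4 lower of 13 in basal cells at L against G (median 0.09), where 26.9% and 50.1% of all genes were called. In the other 6 comparisons 0 to 3 receptors were higher and 0 to 3 lower, where 4.47% to 50.1% of all genes were called. Of the EF-hand genes 0 to 2 were higher and 1 to 4 lower in their other 6 comparisons, where 4.47% to 39.9% were called. Rcn1, a calcium-binding protein of the endoplasmic reticulum, fell by 1.71 (SE 0.18, adjusted p = 7.4e-05) in luminal progenitors at PI and by 1.88 (SE 0.14, adjusted p = 1.5e-08) in basal cells at L.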

How the data were processed

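Cells of 8 mice were counted by the authors with Cell Ranger, with reads aligned to mm10 (STAR is named in the submitters' processing notes, versions not given in the sources used here), and deposited as raw UMI counts per gene and cell for each library, with no normalisation between libraries. The deposited annotation gives the cluster of each cell, a quality flag, its totals and the fraction of mitochondrial UMIs, all computed by the authors. The depth per library was 13785920 to 35711533 UMIs, with 3770 to 9624 UMIs in the median cell. Of 25806 barcodes, 25009 passed the flag, clusters C16 and C20 (doublets by the authors' account) were not used, and no further doublet caller was run.

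UMIs of 27998 genes were summed per mouse and cluster or class (20 or more cells) in Python 3.11.15 with pandas 2.3.3. Classes were tested between stages with the quasi-likelihood test of edgeR 4.0.16 in R 4.3.3, with TMM scaling, filterByExpr (minimum count 10, minimum total 15) and Benjamini-Hochberg adjustment over all genes tested at 0.05, so each adjusted p is from this test unless another is named. The basal comparisons came from 1 fit over 4 stages, and the unequal changes among classes from fits with mouse and class terms, whose sums share mice. A mouse is the replicate: an exact permutation test of 2 against 2 cannot go below p = 0.333. The scripts were tested on simulated data. Levels between clusters, correlations of log2(CPM + 1) and shares of cells carry no test. Alternatives were DESeq2 1.42.0, no filter, milk genes left out, equal depth, the main cluster of each stage, glmTreat at a log2 fold change of 1 and FDR 0.01, the replicate number as a block, and each mouse left out; scaling by UMI total alone was added after seeing the data.

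The members and lists were chosen with earlier results of these data known. Genes of the other lists were named by a fixed rule: past the test, 20 CPM or more in 1 group, no overlap between mice, and at most the 4 steepest per list and comparison. Some genes that the rules for named genes pick are not reported here.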

Additional observations from a re-analysis of the deposited data

Results flagged for a closer look

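The 2 fits across cell classes picked out members whose change between stages was not the same in each class (edgeR, adjusted over all genes tested). For PI against NP these were S100a6 (adjusted p = 1.5e-09), lower in luminal progenitors of both PI mice and overlapping between stages in differentiated hormone-sensing cells, and S100a16 (adjusted p = 3.8e-05). For L against G they were S100a1 (adjusted p = 2.8e-06), S100a10 (adjusted p = 4.3e-05), S100a14 (adjusted p = 2.5e-04), S100a6 (adjusted p = 0.00337) and S100a4 (adjusted p = 0.0326). In differentiated alveolar cells S100a4 was near 0 at both stages (means of 1.89 CPM at G and 0.671 CPM at L). The basal markers Krt5, Krt14 and Acta2 were higher at L in both alveolar classes (107 to 197 CPM summed at G, 878 to 4495 CPM at L), where S100a1 and S100a6 were called higher in both, S100a10 and S100a4 in alveolar progenitors alone and S100a14 in neither. The part of basal transcripts in these results was not tested.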

How the results depend on the processing

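Of 70 fold changes of members tested, 34 were called, and none of the 34 changed direction under an alternative chosen at the outset. Scaling by UMI total alone, chosen after seeing the data, turned S100a11 (-0.13) and S100a13 (-0.057) in differentiated alveolar cells and, among changes not called, S100a10 (-0.82) and S100a14 (-0.52) there and S100a16 in alveolar progenitors (-0.0429). It left 1 member called in basal cells at PI, and 5 and 8 members with unequal changes among luminal classes and at lactation. DESeq2 turned S100a1 in basal cells at G (0.0466) and S100a14 in alveolar progenitors (0.02), neither called, and found 3 members unequal at lactation. Without a filter S100a10 in differentiated alveolar cells was -0.00717, and 6 members were called in hormone-sensing progenitors and 5 in basal cells at PI. Equal depth, in basal cells that of PI mouse 1, left 3 members called there at G, 3 at L and 1 at PI (S100a14, with S100a6 and S100a16 lost). It tested 2571 instead of 11870 genes in basal cells. With glmTreat 3 members were called in luminal progenitors, 1 in hormone-sensing progenitors, 1 in differentiated hormone-sensing cells, 1, 2 and 0 in basal cells at G, L and PI, 1 in differentiated alveolar cells and 2 in alveolar progenitors. Thinned to 1000 UMIs, the share of cells with S100a8 over the 4 mice was 2.15% in luminal progenitors and 0% in differentiated hormone-sensing cells, and that of S100a4 in C15 was 29.8%. The cause of these shifts was not tested.

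With each mouse left out in turn, the number of members called ranged from 4 to 6 in luminal progenitors, 2 to 5 in hormone-sensing progenitors (5 without PI mouse 2), 1 to 3 in differentiated hormone-sensing cells (1 without NP mouse 1), 4 to 5, 5 to 5 and 0 to 3 in basal cells at G, L and PI, 2 to 4 in differentiated alveolar cells (2 without G mouse 2) and 6 to 7 in alveolar progenitors. For the unequal changes it ranged from 2 to 4 among luminal classes (4 without PI mouse 1) and 3 to 6 at lactation (3 without G mouse 2). The fold changes that turned in this way were not called with all mice. Their log2 ranges were -0.40 to 1.36 for S100a8 in luminal progenitors, -0.44 to 0.0418 for S100a11 in hormone-sensing progenitors, -0.00693 to 0.17 for S100a6 and -0.33 to 0.0472 for S100a10 in differentiated hormone-sensing cells, and -0.10 to 0.10 for S100a1 in basal cells at G. In basal cells at L they were -1.48 to 5.27 for S100a8 and -0.31 to 0.10 for S100a16, and at PI -8.04 to 2.97 for S100a4, -6.73 to 1.96 for S100a8 and -0.15 to 0.39 for S100a13. In differentiated alveolar cells they were -0.0658 to 0.35 for S100a10, -1.57 to 1.26 for S100a14, -0.23 to 0.11 for S100a16 and -7.92 to 0.46 for S100a4, and in alveolar progenitors -0.76 to 0.51 for S100a14 and -0.0517 to 0.51 for S100a16. The values below -6 or above 5 are fitted against mice with no or few UMIs and are no bound.

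The replicate numbers only name mice: deviations of same-numbered mice from their group correlated at -0.09 to 0.08. With the replicate number as a block 6, 4 and 2 members were called in the 3 luminal comparisons, 5, 5 and 3 in basal cells, and 5 and 6 in the alveolar classes, and no called member was lost; S100a13 in luminal progenitors (adjusted p = 0.0465) and S100a16 in hormone-sensing progenitors (adjusted p = 0.0437) were gained.

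Over all genes, DESeq2 called 1590 instead of 2892 in luminal progenitors, 823 instead of 1778 in hormone-sensing progenitors, 1144 instead of 2368 in alveolar progenitors and 849 instead of 1864 in the fit across luminal classes. Equal depth called 350, 606 and 218 of 2571 genes tested in basal cells at G, L and PI, against 4739, 5949 and 530 of 11870. In differentiated alveolar cells it called 1180 of 5418, against 2219 of 11860. With glmTreat the counts were 231, 127, 121, 479, 901, 18, 342 and 352 in the 8 comparisons, in the order of the report's first 3 luminal ones, basal cells at G, L and PI, differentiated alveolar cells and alveolar progenitors. No filter called 877 of 19205 genes tested instead of 530 of 11870 in basal cells at PI. Scaling by UMI total alone called 6096 instead of 2219 of 11860 in differentiated alveolar cells and 5636 instead of 3148 of 11664 in the lactation fit.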
